A study of Mus musculus with 46 samples.

Results

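PrE-E and EPI-E are the CD140-positive and CD140-negative fractions of mouse EPSC, a stem cell type named only by that abbreviation in the labels, grown in a medium that induces primitive endoderm (PrE). The comparison was defined by its labels and its count table, and it was chosen with earlier results of these data known. It holds 4 of the 46 RNA-seq libraries of the series, PrE-E replicates 1 and 2 and EPI-E replicates 1 and 2, and 2 of its 19 groups. The series addresses how N6-methyladenosine (m6A), a base modification of mRNA, bears on the choice between epiblast and primitive endoderm. All 4 libraries came from the same kind of culture, so the fractions differ by the sort and not by medium, and no untreated EPSC library enters here. The labels name no strain, cell line, induction time, gate or added agent, and do not say that the replicates were separate cultures. The p-values therefore rest on the spread of these samples alone, and that spread may be technical. In bulk RNA, fewer cells that express a gene and less RNA of it per cell cannot be told apart.

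Primitive endoderm is the extra-embryonic layer that forms beside the epiblast in the inner cell mass of the blastocyst. GATA6 and NANOG mark the alternative fates, and FGF4 from epiblast-fated cells acts through FGF receptors and the ERK kinases on cells that take the endoderm fate. Primitive endoderm then gives rise to visceral endoderm, which takes up and carries maternal nutrients, and to parietal endoderm, which lays down the thick basement membrane called Reichert's membrane.

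The 4 libraries held between 12788803 and 15973967 counts. Genes with at least 1 count numbered 13000 and 13525 in PrE-E and 14537 and 14721 in EPI-E. The first principal component carried 88.2% of the variance and separated the fractions. Levels below are in CPM, the usual unit of depth-scaled counts, with TMM-adjusted library totals, in the order replicate 1, replicate 2. A difference is PrE-E minus EPI-E on the log2 scale with its standard error (n = 2 per group), and a gene was called at a Benjamini-Hochberg adjusted p under 0.05 over all 12423 genes tested. Of these, 7172 were called, which is 57.7% of the genes tested. Of all genes tested, 3510 were called higher in PrE-E (28.3%) and 3662 lower (29.5%). A difference of at least 1 log2 unit was reached by 2441 higher genes (19.6%) and 2215 lower genes (17.8%). With more than 1 gene in 2 called, a count of called members of a gene list is read below against these shares, and size and level carry the description. The filter on low counts was passed by 372 genes through the PrE-E libraries alone and by 903 through the EPI-E libraries alone, which fixed the direction of their difference.

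**Figure D1:**
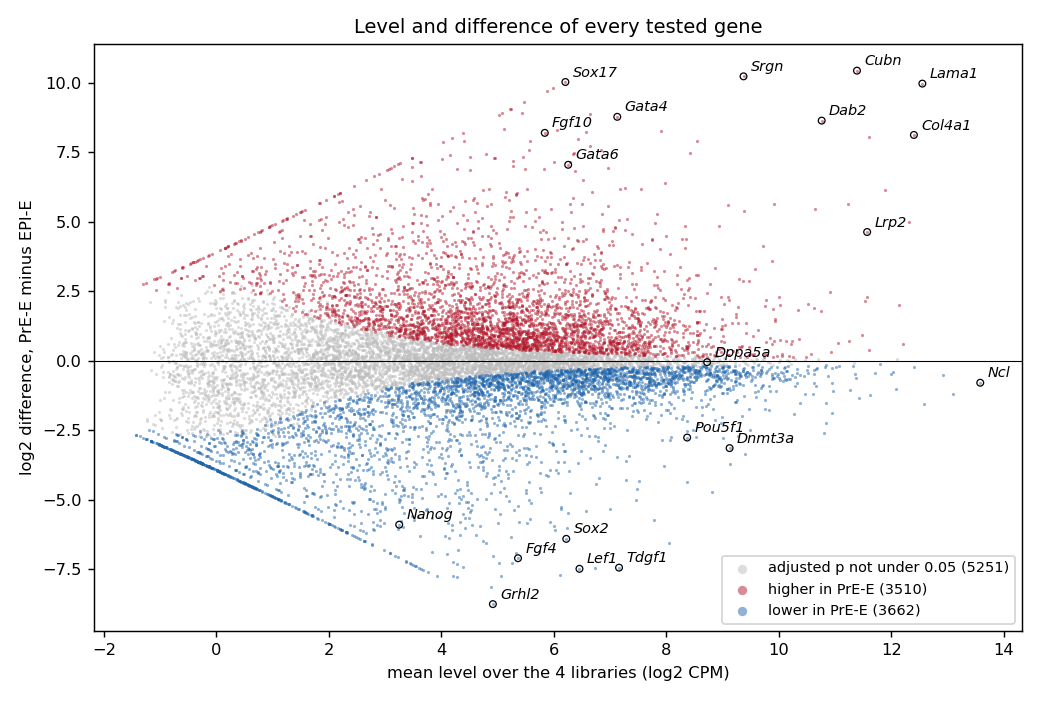
Each point is 1 of the 12423 tested genes, with its mean level over the 4 libraries on the x axis (log2 CPM) and the log2 difference PrE-E minus EPI-E on the y axis. Red marks the 3510 genes called higher and blue the 3662 called lower in PrE-E. Lama1, Col4a1, Cubn and Lrp2 lie at the far right above 0, and the straight edges at low level are genes at 0 counts in 1 fraction.

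The 5 markers below differed in the direction that the names of the fractions imply. For Sox17 and Nanog the filter on low counts fixed that direction, since each passed it through its higher fraction alone. The labels say CD140 without a or b. Pdgfra, which encodes CD140a, is taken here as the gene of the gated marker, so its difference is no finding. It stood at 731 and 761 CPM in PrE-E and 2.85 and 3.04 CPM in EPI-E. Gata4, a zinc-finger regulator of endoderm, was at 268 and 291 CPM in PrE-E and 0.928 and 0 CPM in EPI-E, a difference of 8.78 ± 0.30 (adjusted p = 3.32e-10). Sox17, an SRY-box regulator of the same lineage, was at 134 and 161 CPM in PrE-E and 0 in both EPI-E libraries. Against a floor of 3 counts in each EPI-E library it was at least 692-fold higher in PrE-E. Sox2, a core pluripotency regulator, was at 1.31 and 1.87 CPM in PrE-E and 151 and 144 CPM in EPI-E, and Nanog at 0.386 and 0 CPM in PrE-E and 17.03 and 20.7 CPM in EPI-E. No library of 1 fraction reached the level of the other for any of these 5 genes, of which Pdgfra is taken as the gate. The share of all tested genes without such overlap is not given here, so the separation is description only. Pdgfrb, which encodes CD140b, was at 0 and 0.966 CPM in PrE-E and 0.663 and 0.989 CPM in EPI-E, so the counts hold little RNA of the other receptor that the label CD140 could name.

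All 17 listed primitive endoderm transcription factors were higher in PrE-E, with a median difference of 7.06 where the median over all tested genes was -0.03. Of the 17, 7 passed the filter on low counts through PrE-E alone, which fixed their direction. Gata6, the GATA factor at the head of the endoderm programme, was at 2187 and 2096 counts in PrE-E and 0 and 28 in EPI-E, or 169 and 135 CPM in PrE-E and 0 and 2.13 CPM in EPI-E. The 2 EPI-E libraries disagreed for this gene, and its call (difference 7.06 ± 0.53, adjusted p = 4.91e-06) was lost with a replicate block (adjusted p = 0.0795), without PrE-E replicate 1 (0.108) and without PrE-E replicate 2 (0.111). The difference lay between 6.06 and 7.30 in all alternatives but the one without EPI-E replicate 2, which leaves EPI-E at 0 counts of this gene. Sox7, a relative of Sox17, was at 167 and 143 CPM in PrE-E and 1.06 and 0.837 CPM in EPI-E (difference 7.14 ± 0.20). Foxa2, a forkhead factor of endoderm, was at 42.04 and 50.8 CPM in PrE-E and 1.33 and 0 CPM in EPI-E (difference 5.80 ± 0.54), and Hnf4a, which acts later in visceral endoderm, was at 19.5 and 29.9 CPM in PrE-E and 0.0663 and 0.152 CPM in EPI-E.

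Cited1, a transcriptional co-regulator, and Tfec, a MITF-family factor, had no count in either EPI-E library and were at least 351-fold and 172-fold higher in PrE-E. Creb3l2, a membrane-bound factor of secretory cells, was at 151 and 155 CPM in PrE-E and 4.37 and 1.29 CPM in EPI-E. The smallest margin in the list belonged to Eomes, a T-box gene, at 21.8 and 25.2 CPM in PrE-E and 8.81 and 13.4 CPM in EPI-E (difference 1.08 ± 0.28). As a group, the 17 genes made up 0.156% of the counts in each PrE-E library and 0.00486% and 0.00447% in EPI-E. In EPI-E, 12 of the 17 stood at under 2% of their PrE-E level, and the median was 0.612%.

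**Figure D2:**
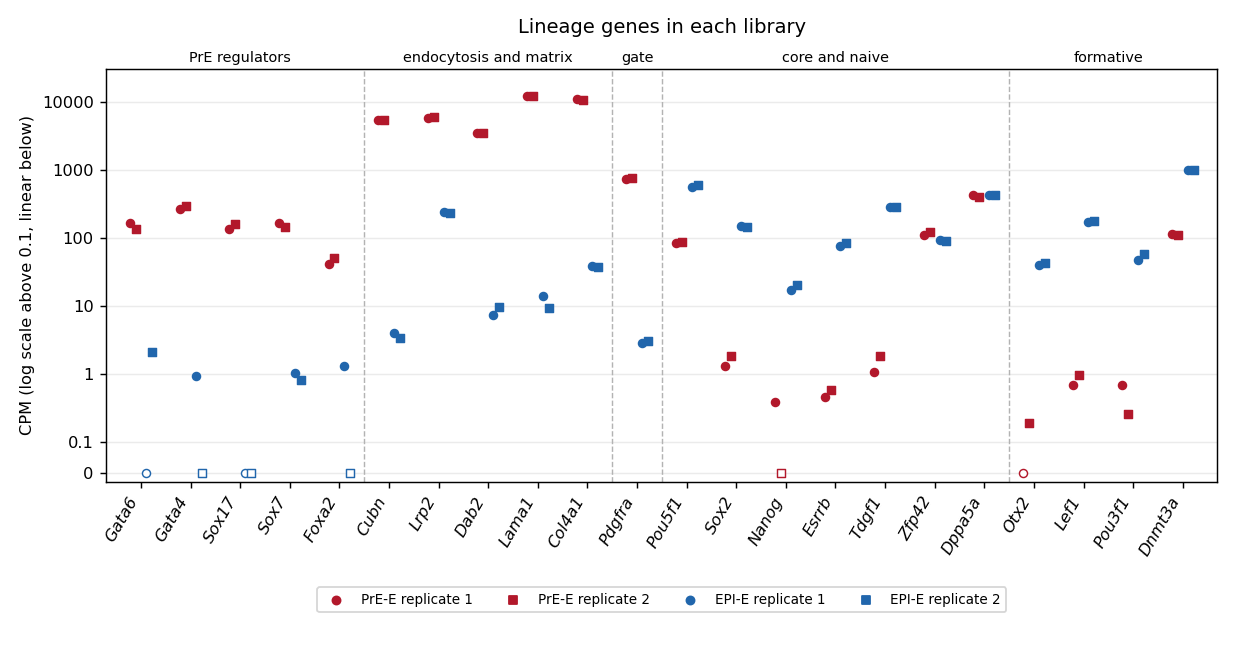
Level in CPM of lineage genes in each of the 4 libraries (y axis, log scale above 0.1 and linear below). Red symbols are PrE-E and blue EPI-E, circles replicate 1 and squares replicate 2, and open symbols mark 0 counts. Among the genes shown, the fractions overlap for Dppa5a, where the 4 libraries lie between 406 and 432 CPM.

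Genes of receptor-mediated uptake also had high counts in PrE-E. Cubn, which encodes the multiligand endocytic receptor cubilin, showed a difference of 10.44 ± 0.07, with 5341 and 5397 CPM in PrE-E and 3.98 and 3.42 CPM in EPI-E. Its partner Lrp2, encoding megalin, was at 5751 and 5961 CPM in PrE-E and 239.9 and 229.8 CPM in EPI-E (difference 4.64 ± 0.05). Amn, which encodes the membrane anchor of cubilin, was at 78.3 and 76.4 CPM in PrE-E and 0.729 and 0 CPM in EPI-E. Dab2, a clathrin adaptor long used as a primitive endoderm marker, was at 3481 and 3458 CPM in PrE-E and 7.42 and 9.74 CPM in EPI-E (difference 8.65 ± 0.09). Per kilobase of exon, PrE-E held 359.5 CPM of Cubn and 351 of Lrp2, so their levels were alike, while EPI-E kept 4.01% of the PrE-E level of Lrp2 and 0.0689% of that of Cubn. Of the 15 tested surface and endocytic genes, 14 were higher in PrE-E and 1, Fgfr1, was lower, with a median of 4.64. Of the 15, 1 passed the filter on low counts through PrE-E alone, which fixed its direction.

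Cytokine receptor genes belonged to the same list. Lifr, the leukaemia inhibitory factor receptor, was at 546 and 569 CPM in PrE-E and 63.7 and 41.5 CPM in EPI-E (difference 3.40 ± 0.15), and Il6st, which encodes its partner gp130, at 143 and 139 CPM in PrE-E and 54.7 and 57.4 CPM in EPI-E (difference 1.33 ± 0.11). Dpp4, a cell-surface peptidase, was at 275 and 243 CPM in PrE-E and 28.4 and 30.1 CPM in EPI-E. Aqp8, an aquaporin, had no count in EPI-E and was at least 104-fold higher.

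GATA factors bind DNA at the short motif that gives them their name. Promoters of Dab2 and of Klb, the FGF co-receptor described below, are shown because each lies before a strongly different gene and holds 1 such motif; they were chosen after their values were seen. Each run is the 250 bases before the RefSeq start of the gene on GRCm38.p6, plus strand, 5′ to 3′, and capitals mark the match.
Dab2, chr15:6299539-6299788: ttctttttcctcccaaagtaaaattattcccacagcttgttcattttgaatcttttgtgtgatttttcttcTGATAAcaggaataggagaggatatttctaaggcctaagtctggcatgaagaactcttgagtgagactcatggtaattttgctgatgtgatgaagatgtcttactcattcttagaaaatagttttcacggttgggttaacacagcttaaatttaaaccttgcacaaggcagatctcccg
Klb, chr5:65348161-65348410: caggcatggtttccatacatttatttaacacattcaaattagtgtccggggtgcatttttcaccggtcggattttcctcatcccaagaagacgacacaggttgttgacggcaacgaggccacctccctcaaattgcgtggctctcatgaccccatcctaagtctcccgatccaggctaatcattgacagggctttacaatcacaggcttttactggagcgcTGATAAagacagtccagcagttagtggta
The match begins 179 bases before the start in Dab2 and 29 bases before it in Klb. The motif AGATAA was sought on both strands of the same 250-base window for every tested gene with an entry, and so were its forms TGATAA and, with a final G, AGATAG and then TGATAG. It was found in 379 of 1958 promoters of genes at least 1 log2 unit higher in PrE-E (19.4%), in 328 of 1698 of those at least 1 log2 unit lower (19.3%) and in 1919 of the 9894 tested genes with an entry (19.4%). The share in this window was thus nearly the same for genes of either direction. The octamer ATGCAAAT, the motif of POU factors, was found in 1.28%, 2.36% and 1.61% of the same 3 sets.

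Basement membrane genes had the highest counts among those called higher in PrE-E. Lama1, the laminin alpha chain of early embryonic basement membrane, was at 12061 and 11974 CPM in PrE-E and 13.8 and 9.51 CPM in EPI-E (difference 9.98 ± 0.12). Its partner chains were Lamb1 at 7524 and 7519 CPM in PrE-E and 101 and 111 CPM in EPI-E and Lamc1 at 9943 and 9917 CPM in PrE-E and 324 and 303 CPM in EPI-E. Col4a1, a chain of the sheet-forming collagen IV, was at 10811 and 10788 CPM in PrE-E and 39.03 and 37.7 CPM in EPI-E (difference 8.13 ± 0.05), and Col4a2, the other chain of the same trimer, at 6322 and 6157 CPM in PrE-E and 20.4 and 26.6 CPM in EPI-E. Per kilobase of exon, PrE-E held 1241 CPM of Lama1, 758 of Lamb1 and 1200.5 of Lamc1, so the 3 chains lay within a narrow range. In EPI-E the same chains were at 1.21, 10.7 and 37.9 CPM per kilobase, a spread in which the alpha chain was lowest.

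Of the 14 listed basement membrane genes, 11 were higher in PrE-E and 3 lower, with a median of 3.97. Sparc, a collagen-binding matricellular protein, was at 1945 and 1866 CPM in PrE-E and 31.5 and 45.1 CPM in EPI-E, and Hspg2, the heparan sulphate proteoglycan perlecan, at 1731 and 1759 CPM in PrE-E and 135 and 157 CPM in EPI-E. The lower members were Col18a1 at 7.56 and 8.57 CPM in PrE-E and 444 and 419.6 CPM in EPI-E, the fibronectin gene Fn1 at 134 and 102 CPM in PrE-E and 491 and 516 CPM in EPI-E, and Lama5, another laminin alpha chain, at 28.4 and 24.3 CPM in PrE-E and 115 and 101 CPM in EPI-E. The matrix genes thus did not move one way: 2 laminin alpha chains differed in opposite directions, by 9.98 ± 0.12 for Lama1 and -2.04 ± 0.14 for Lama5. Integrin genes, the receptors of such matrix, gave 4 higher and 5 lower of 21. Of the 21, 1 passed the filter through PrE-E alone and 7 through EPI-E alone. Their median of -0.12 lay between -0.56 (without PrE-E replicate 2) and 0.11 (under ribosomal protein scaling) in the alternatives, so the list had no stable direction. Itga6, a laminin receptor subunit, was at 8.48 and 7.73 CPM in PrE-E and 126 and 121 CPM in EPI-E, and Itga5, the fibronectin receptor subunit, at 155 and 166 CPM in PrE-E and 23.9 and 19.09 CPM in EPI-E.

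Enzymes that fold and modify collagen were higher in PrE-E for 12 of 12 members, with a median of 3.98. Serpinh1, the collagen chaperone HSP47, was at 3388 and 2869.8 CPM in PrE-E and 72.8 and 69.3 CPM in EPI-E (difference 5.46 ± 0.08), and the prolyl hydroxylase subunit gene P4ha2 at 359 and 381 CPM in PrE-E and 4.70 and 5.10 CPM in EPI-E (difference 6.20 ± 0.11). Plod2, a lysyl hydroxylase, was at 961 and 929 CPM in PrE-E and 35.8 and 29.1 CPM in EPI-E. General chaperones of the endoplasmic reticulum were higher for 15 of 16, with a median of 2.04 and 0 lower. Hsp90b1, the chaperone GRP94, was at 7097 and 7347 CPM in PrE-E and 1828 and 1735 CPM in EPI-E, and Calr, calreticulin, at 3309 and 3205 CPM in PrE-E and 605 and 553 CPM in EPI-E. Dnajb9, a co-chaperone gene, was the uncalled member, at 8.25 and 13.01 CPM in PrE-E and 11.99 and 10.3 CPM in EPI-E (difference -0.07 ± 0.34).

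Lysosomal genes were higher for 16 of 17 tested members, with 0 lower and a median of 3.49. Of the 17, 1 passed the filter on low counts through PrE-E alone, which fixed its direction. Ctsl, a cathepsin protease, was at 1277 and 1341 CPM in PrE-E and 26.2 and 36.8 CPM in EPI-E (difference 5.38 ± 0.12). Lgmn, the asparaginyl protease legumain, was at 425 and 466 CPM in PrE-E and 11.1 and 11.3 CPM in EPI-E, and Cd63, a tetraspanin of late endosomes, at 1746 and 1444 CPM in PrE-E and 92.2 and 87.4 CPM in EPI-E. Ctsh, another cathepsin, had no count in either EPI-E library and was at least 355-fold higher in PrE-E.

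Genes of the derivatives of primitive endoderm were unevenly present. Of 18 listed carriers and secreted proteins of visceral endoderm, 11 passed the filter on low counts. Of these, 5 passed the filter through PrE-E alone, and 9 were higher in PrE-E and 1 lower, with a median of 3.10, or 3.08 with genes at 0 set to their bound. Apoe, an apolipoprotein, was at 1168 and 1198 CPM in PrE-E and 652 and 677 CPM in EPI-E (difference 0.83 ± 0.05), and Mttp, which loads lipid onto apolipoprotein B, was at 84.5 and 106 CPM in PrE-E and 4.11 and 7.38 CPM in EPI-E. Soat2, which esterifies cholesterol, was at 48.7 and 42.7 CPM in PrE-E and 0.199 and 0.0761 CPM in EPI-E. Ttr, the thyroid hormone carrier of visceral endoderm, was at 6.17 and 5.99 CPM in PrE-E and 0.199 and 0.989 CPM in EPI-E, and Afp, alpha-fetoprotein, had 0 counts in all 4 libraries. Trf, the transferrin gene, was the lower member, at 0.231 and 1.29 CPM in PrE-E and 12.6 and 16.7 CPM in EPI-E.

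Parietal endoderm genes were higher for 10 of 12, with a median of 3.32, and 2 of the 12 passed the filter through PrE-E alone. Pth1r, the parathyroid hormone receptor gene induced on entry into parietal endoderm, was at 481 and 473 CPM in PrE-E and 0.861 and 1.98 CPM in EPI-E (difference 8.29 ± 0.17), and Tfpi, an inhibitor of coagulation, at 593 and 589.8 CPM in PrE-E and 27.5 and 28.4 CPM in EPI-E. Krt8, a simple epithelial keratin, was at 230.4 and 224 CPM in PrE-E and 5.17 and 6.24 CPM in EPI-E. The lower members were Sema6a at 13.3 and 13.1 CPM in PrE-E and 60.2 and 63.2 CPM in EPI-E and Vim, the intermediate filament vimentin of mesenchymal and parietal cells, at 37.9 and 39.8 CPM in PrE-E and 85.3 and 98.4 CPM in EPI-E. The gene list of the anterior visceral endoderm, a signalling region that positions the head, gave 3 higher and 4 lower of 8. Of the 8, 1 passed the filter through PrE-E alone and 2 through EPI-E alone. The median of -0.63 came to -0.34 without EPI-E replicate 2. Dkk1, a secreted Wnt inhibitor, was at 73.7 and 57.4 CPM in PrE-E and 0 in both EPI-E libraries, Hesx1 at 47.8 and 49.5 CPM in PrE-E and 3.51 and 2.21 CPM in EPI-E and Hhex at 34.9 and 30.1 CPM in PrE-E and 3.91 and 3.20 CPM in EPI-E. Otx2, a head organiser and epiblast gene, went the other way at 0 and 0.193 CPM in PrE-E and 39.6 and 43.6 CPM in EPI-E. Cer1, Lhx1 and Gsc, which also define that region, did not pass the filter on low counts; Lhx1 was at 8 and 45 counts in PrE-E and 0 and 1 in EPI-E.

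**Figure D3:**
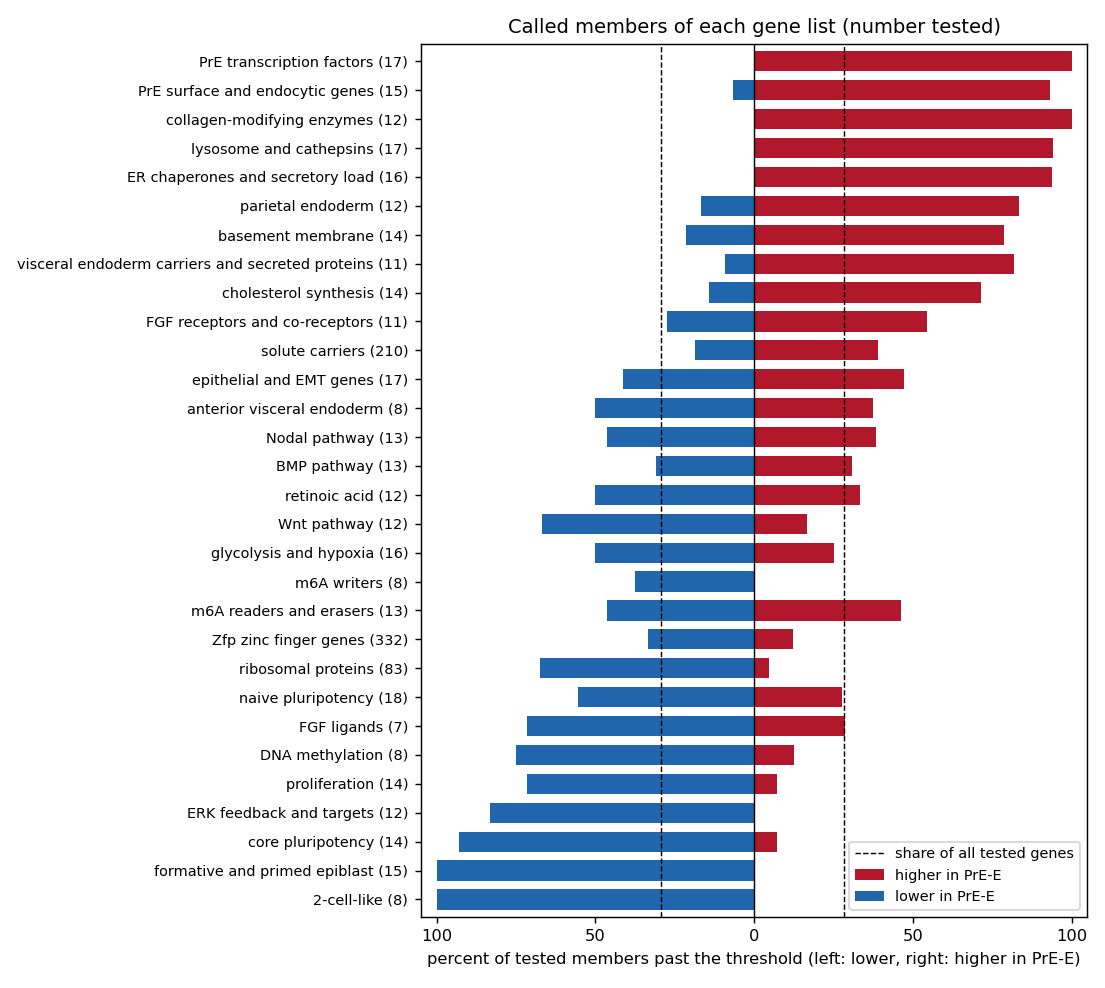
Share of the tested members of each gene list called higher (red, to the right) or lower (blue, to the left) in PrE-E, in percent, with the number tested in brackets. Dashed lines mark the shares over all tested genes, 28.3% higher and 29.5% lower. The endoderm, collagen-enzyme, lysosome and chaperone lists fill the right side and the pluripotency, ERK and 2-cell-like lists the left; the 8 tested 2-cell-like genes passed the filter through EPI-E alone.

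Pluripotency genes were lower in PrE-E to very different extents. Of 14 core genes, 13 were lower and 1 higher, with a median of -2.19. Of the 14, 1 passed the filter on low counts through EPI-E alone, which fixed its direction. Sox2 kept 1.08% of its EPI-E level and Tdgf1, the Nodal co-receptor Cripto, 0.518% (1.08 and 1.87 CPM in PrE-E and 281 and 289 CPM in EPI-E). Pou5f1, which encodes OCT4, kept 14.8% and was at 84.00 and 86.7 CPM in PrE-E and 564 and 591 CPM in EPI-E (difference -2.76 ± 0.07). L1td1, an RNA-binding protein gene, kept 35.2%, at 955 and 950.4 CPM in PrE-E and 2686 and 2735 CPM in EPI-E. Lin28a, another RNA-binding protein gene, kept 79.5%, at 271 and 271 CPM in PrE-E and 328 and 354 CPM in EPI-E, and its call was lost under ribosomal protein scaling. Sall4, a zinc-finger factor, was the higher member, at 275 and 270.3 CPM in PrE-E and 224 and 225 CPM in EPI-E (difference 0.28 ± 0.07, adjusted p = 0.00417). In PrE-E, 9 of the 14 core genes still had a mean of at least 10 CPM, and 3 were under 2% of their EPI-E level.

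Naive pluripotency genes split. Of 18 tested, 10 were lower and 5 higher, with a median of -2.15. The filter on low counts was passed by 5 of the 18 through EPI-E alone, which fixed their direction. Esrrb, an orphan nuclear receptor of the naive network, was at 0.463 and 0.580 CPM in PrE-E and 75.2 and 85.3 CPM in EPI-E (difference -6.91 ± 0.25), Nr5a2, another nuclear receptor, at 0.154 and 0.193 CPM in PrE-E and 20.9 and 18.8 CPM in EPI-E, and Dppa3, a maternal factor also called Stella, at 0.309 and 0 CPM in PrE-E and 21.9 and 15.4 CPM in EPI-E. Klf5 and Tbx3, which act in naive cells and also in endoderm, were higher, at 591 and 574 CPM in PrE-E and 74.1 and 79.7 CPM in EPI-E (difference 2.92 ± 0.07) and 129.9 and 148 CPM in PrE-E and 19.3 and 27.2 CPM in EPI-E (difference 2.58 ± 0.16). Tdh, the threonine dehydrogenase of mouse stem cells, was at 71.4 and 73.5 CPM in PrE-E and 43.1 and 44.96 CPM in EPI-E (difference 0.72 ± 0.14). Zfp42, the gene for REX1, was at 110.1 and 123 CPM in PrE-E and 93.4 and 90.2 CPM in EPI-E (difference 0.34 ± 0.11, adjusted p = 0.0167), a call lost without PrE-E replicate 2 (0.136), without EPI-E replicate 2 (0.0571), with library totals (0.0578) and with DESeq2 (0.0576). Dppa5a, an RNA-binding protein gene, was at 429 and 406 CPM in PrE-E and 432 and 429 CPM in EPI-E, a difference of -0.04 ± 0.06 that did not pass the test. The last 2 genes are often used as marks of naive cells, and neither was called lower in the CD140-positive fraction.

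Every tested gene of the formative and primed epiblast list was lower in PrE-E, 15 of 15, with a median of -3.63, and 4 of the 15 passed the filter through EPI-E alone. Lef1, a Wnt effector, was at 0.694 and 0.966 CPM in PrE-E and 169 and 180.4 CPM in EPI-E (difference -7.48 ± 0.19), and Pou3f1, the POU factor OCT6, at 0.694 and 0.258 CPM in PrE-E and 47.5 and 58.2 CPM in EPI-E (difference -6.46 ± 0.34). Foxd3, a forkhead factor of the epiblast, had no count in PrE-E and was at least 97.3-fold higher in EPI-E. Fgf5, a mark of the later, primed epiblast, was low in both, at 4.63 and 3.80 CPM in PrE-E and 10.1 and 9.74 CPM in EPI-E; its call (adjusted p = 0.0252) was lost without EPI-E replicate 1 (0.0972), without EPI-E replicate 2 (0.0812), without PrE-E replicate 2 (0.0625) and under ribosomal protein scaling (0.0711). EPI-E thus held Otx2, Pou3f1 and Lef1 together with the naive genes Esrrb, Nr5a2 and Dppa3.

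**Figure D4:**
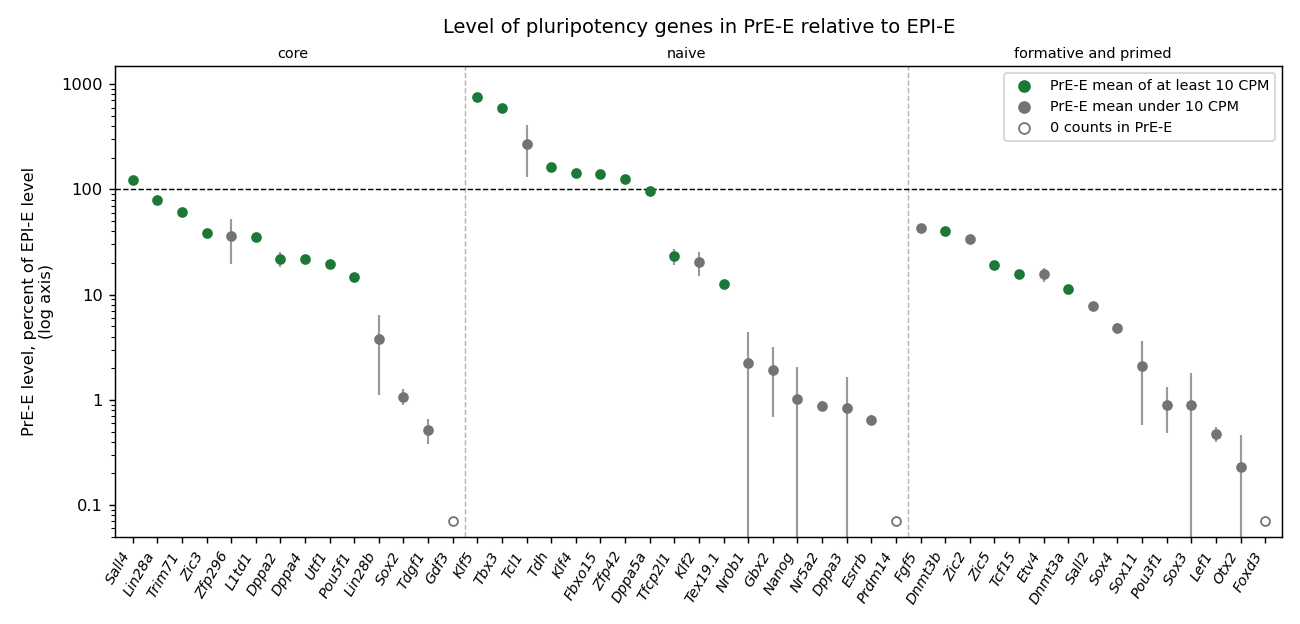
Mean PrE-E level as a percent of the mean EPI-E level (y axis, log) for every tested gene of the core, naive and formative or primed lists. Lines span the 2 PrE-E replicates, green marks a PrE-E mean of at least 10 CPM, and open symbols at the bottom are genes with 0 counts in PrE-E. Sox2, Tdgf1, Esrrb and Lef1 lie near or under 1%, Pou5f1 at 14.8%, and Dppa5a, Zfp42 and Sall4 near the dashed line at 100%.

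FGF ligands, receptors and targets were divided between the fractions. Fgf4, the epiblast ligand, was at 0.771 and 0.193 CPM in PrE-E and 93.8 and 69.99 CPM in EPI-E (difference -7.10 ± 0.34). Fgf15 followed the same direction at 0.617 and 0 CPM in PrE-E and 6.96 and 7.53 CPM in EPI-E. Fgf10 and Fgf3, ligands with roles in later organ formation, were found in PrE-E, at 118 and 110.5 CPM in PrE-E and 0.464 and 0 CPM in EPI-E (difference 8.20 ± 0.33) and 30.5 and 26.03 CPM in PrE-E and 0.398 and 0.0761 CPM in EPI-E (difference 6.20 ± 0.44). Of 7 tested ligand genes, 2 were higher and 5 lower in PrE-E, with a median of -3.20, or -2.44 with genes at 0 set to their bound. Of the 7, 2 passed the filter on low counts through PrE-E alone and 3 through EPI-E alone, which fixed their direction.

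Receptor genes differed in opposite directions. Fgfr1 was at 3.86 and 4.12 CPM in PrE-E and 68.1 and 69.2 CPM in EPI-E (difference -4.06 ± 0.20). Fgfr2 was at 108 and 95.7 CPM in PrE-E and 22.8 and 17.2 CPM in EPI-E (difference 2.33 ± 0.16), Fgfr3 at 47.4 and 50.4 CPM in PrE-E and 0.861 and 0.761 CPM in EPI-E (difference 5.68 ± 0.28) and Fgfr4 at 28.2 and 24.03 CPM in PrE-E and 0.663 and 0.837 CPM in EPI-E (difference 4.89 ± 0.36). Per kilobase of exon, PrE-E held 9.84 CPM of Fgfr2, 7.37 of Fgfr4, 6.83 of Fgfr3 and 0.404 of Fgfr1. EPI-E held 6.95 CPM per kilobase of Fgfr1, 1.94 of Fgfr2, 0.212 of Fgfr4 and 0.113 of Fgfr3. The receptor gene with the highest level per length was thus Fgfr2 in PrE-E and Fgfr1 in EPI-E. Klb, the co-receptor beta-klotho that lets FGFR4 and FGFR1 bind endocrine FGFs such as FGF15, was at 134 and 133 CPM in PrE-E and 0.199 and 0.380 CPM in EPI-E (difference 8.30 ± 0.23). Among the heparan sulphate proteoglycan genes, Sdc4 was at 546 and 500.5 CPM in PrE-E and 57.9 and 63.5 CPM in EPI-E and Gpc3 at 77.9 and 81.5 CPM in PrE-E and 12.7 and 13.6 CPM in EPI-E, while Sdc1 was lower in PrE-E at 2.6996 and 2.45 CPM in PrE-E and 17.2 and 20.7 CPM in EPI-E.

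Feedback inhibitors and targets of ERK signalling were lower in PrE-E for 10 of 12 members and higher for 0, with a median of -2.55. Dusp6, an ERK phosphatase, was at 2.85 and 1.35 CPM in PrE-E and 67.8 and 75.5 CPM in EPI-E (difference -5.03 ± 0.28). Etv5, an ETS factor induced by FGF, was at 7.71 and 7.73 CPM in PrE-E and 135 and 121 CPM in EPI-E (difference -4.02 ± 0.15), and Spred1, an inhibitor of RAS signalling, at 16.4 and 11.8 CPM in PrE-E and 129 and 136 CPM in EPI-E (difference -3.23 ± 0.16). Spry2 had a smaller difference, at 34.1 and 35.4 CPM in PrE-E and 55.3 and 59.1 CPM in EPI-E. Egr1 and Spry1 were not called, at differences of -0.54 ± 0.24 and -0.24 ± 0.35. These are RNA levels, and ERK activity was not measured. Pdgfa, a ligand gene of the receptor taken as gated, was at 10.6 and 14.9 CPM in PrE-E and 18.5 and 11.4 CPM in EPI-E. The difference of -0.23 ± 0.32 did not pass the test, and the sign turned under ribosomal protein scaling (0.03).

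**Figure D5:**
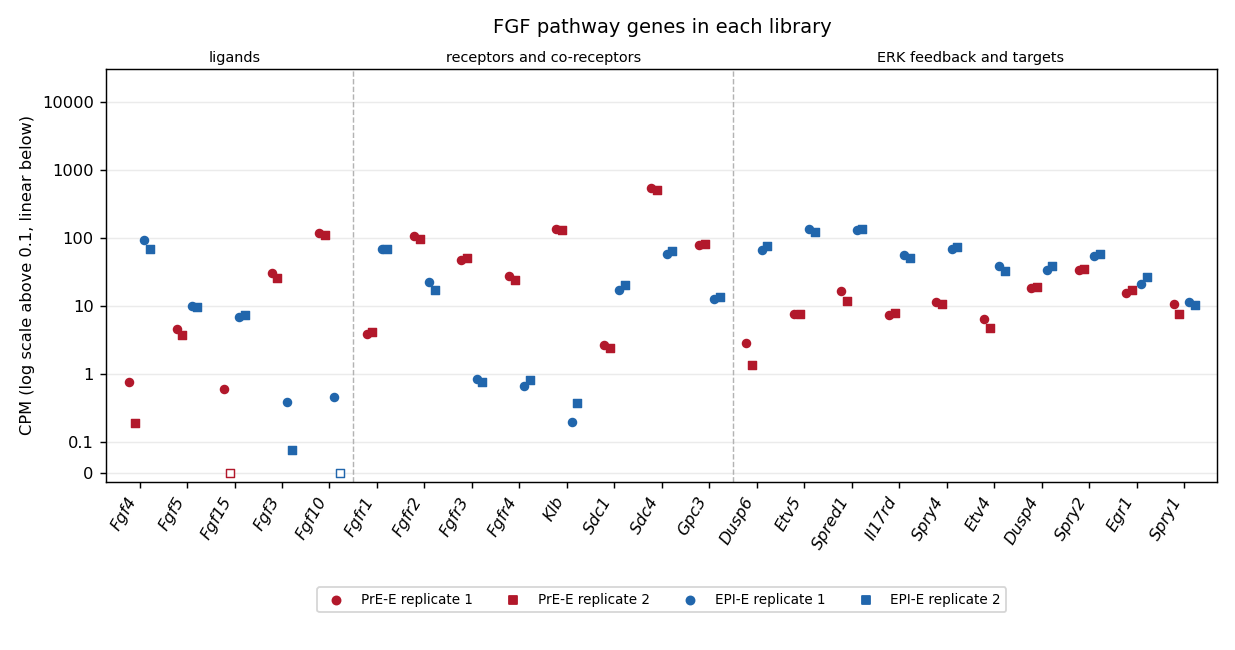
Level in CPM (y axis, log scale above 0.1 and linear below) of FGF ligands, receptors with co-receptors, and ERK feedback genes and targets in each library. Red is PrE-E, blue EPI-E, circles replicate 1, squares replicate 2, and open symbols 0 counts. Fgf4, Fgfr1 and Dusp6 are high in EPI-E, while Fgf10, Fgfr2, Fgfr3, Fgfr4 and Klb are high in PrE-E.

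Nodal signalling keeps the epiblast pluripotent and patterns the endoderm. Nodal itself was low, at 0 and 0.193 CPM in PrE-E and 7.42 and 5.48 CPM in EPI-E. The receptor gene Acvr2b was lower in PrE-E, at 4.71 and 4.96 CPM in PrE-E and 31.3 and 30.1 CPM in EPI-E, and Acvr1b was higher, at 24.1 and 30.8 CPM in PrE-E and 10.6 and 7.38 CPM in EPI-E. Furin, a protease that matures Nodal, was at 32.4 and 34.9 CPM in PrE-E and 4.37 and 4.72 CPM in EPI-E (difference 2.85 ± 0.25). Of 13 tested members 5 were higher and 6 lower, with a median of -0.59, and 2 of the 13 passed the filter through EPI-E alone. The list therefore had no common direction.

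BMP ligand genes also differed by member. Bmp2, a ligand of visceral endoderm, had no count in EPI-E and was at least 83.6-fold higher in PrE-E, at 14.4 and 21.3 CPM. Bmp6 was at 31.9 and 38.9 CPM in PrE-E and 2.85 and 2.05 CPM in EPI-E, and Bmp4, a ligand of the epiblast-derived lineages, was lower in PrE-E at 0.617 and 0.387 CPM in PrE-E and 9.08 and 11.03 CPM in EPI-E. Bmpr2, the type II receptor, was at 226 and 226 CPM in PrE-E and 48.2 and 46.5 CPM in EPI-E (difference 2.25 ± 0.10). The list gave 4 higher and 4 lower of 13, close to the shares over all genes. Of the 13, 3 passed the filter on low counts through PrE-E alone and 3 through EPI-E alone, which fixed their direction. The median of 1.04 came to 1.84 without EPI-E replicate 2. Under ribosomal protein scaling 6 were higher and 4 lower. Ihh, a hedgehog ligand of visceral endoderm, was at 204 and 445 counts in PrE-E and 1 and 0 in EPI-E.

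Wnt pathway genes were lower for 8 of 12 and higher for 2, with a median of -1.51. Of the 12, 4 passed the filter on low counts through PrE-E alone and 3 through EPI-E alone, which fixed their direction. Fzd7, a Wnt receptor, was at 42.7 and 31.1 CPM in PrE-E and 145 and 133 CPM in EPI-E (difference -1.91 ± 0.15), and Wnt8a, a ligand, at 0 and 1 counts in PrE-E and 46 and 39 in EPI-E. The higher members were Dkk1 and Wnt7b, a ligand at 3.16 and 3.16 CPM in PrE-E and 0.398 and 0.152 CPM in EPI-E. The call of Wnt7b (adjusted p = 0.0151) was lost without EPI-E replicate 2 (adjusted p = 0.0953) and with the replicate block (0.0506). In the retinoic acid list 4 were higher and 6 lower of 12, with a median of -1.72, and 1 passed the filter through PrE-E alone and 4 through EPI-E alone. Cyp26a1, the enzyme that degrades retinoic acid, was at 176 and 154 CPM in PrE-E and 1.19 and 1.45 CPM in EPI-E (difference 6.83 ± 0.19), whereas the receptor gene Rarg was at 0.154 and 1.29 CPM in PrE-E and 99.2 and 114 CPM in EPI-E (difference -6.88 ± 0.34).

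Genes of DNA methylation were lower in PrE-E for 6 of 8 members, with a median of -1.19. Dnmt3a, a de novo DNA methyltransferase, was at 116 and 112 CPM in PrE-E and 1002 and 1005 CPM in EPI-E (difference -3.13 ± 0.06), and Tet1, which oxidises methylcytosine, at 170.4 and 163 CPM in PrE-E and 1068 and 1085 CPM in EPI-E (difference -2.69 ± 0.06). Dnmt3b was at 452 and 439 CPM in PrE-E and 1082 and 1129 CPM in EPI-E, and the maintenance pair was Dnmt1 at 268 and 262 CPM in PrE-E and 569 and 550.3 CPM in EPI-E and Uhrf1 at 179 and 184 CPM in PrE-E and 396 and 362 CPM in EPI-E. Among imprinted growth genes 5 of 10 were lower and 2 higher, with a median of -2.16, and 2 of the 10 passed the filter through EPI-E alone. Mest was at 0.231 and 0.451 CPM in PrE-E and 74.3 and 77.2 CPM in EPI-E and Peg10 at 32.2 and 35.2 CPM in PrE-E and 431 and 501 CPM in EPI-E, while Igf2r, the receptor that clears IGF2, was higher in PrE-E at 331 and 319.8 CPM in PrE-E and 78.9 and 89.7 CPM in EPI-E.

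Genes of the 2-cell-like state, which marks rare cells in stem cell cultures, summed to 5.24e-05% and 0.000113% of counts in PrE-E and 0.0108% and 0.0107% in EPI-E over the 13 listed genes in the table. Only 8 of the 13 were tested, and all 8 were called lower in PrE-E. All 8 passed the filter on low counts through the EPI-E libraries alone, so the direction of their difference was fixed by the filter. Zscan4c had no count in PrE-E and 27.2 and 22.7 CPM in EPI-E. These genes form families of near-identical copies, so the split of reads between copies is uncertain, and the values describe the family better than any copy.

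The machinery of m6A, the modification named in the title of the series, had smaller differences than most lineage genes. Of 8 writer genes, 3 were lower and 0 higher, with a median of -0.30 that came to -0.04 under ribosomal protein scaling. Mettl3, the catalytic subunit, was at 7.25 and 7.54 CPM in PrE-E and 15.8 and 17.6 CPM in EPI-E (difference -1.16 ± 0.30, adjusted p = 0.0055), and its partner Mettl14 at 44.7 and 64.9 CPM in PrE-E and 82.8 and 94.3 CPM in EPI-E (difference -0.69 ± 0.17). Of 13 readers and erasers, 6 were higher and 6 lower, with a median of 0.03 that lay between -0.05 with library totals and 0.29 under ribosomal protein scaling, which called 7 higher and 5 lower. Igf2bp2, a reader reported to stabilise modified mRNA, was at 201 and 176 CPM in PrE-E and 65.5 and 71.7 CPM in EPI-E (difference 1.46 ± 0.11), and Ythdf2, a reader that promotes decay, at 70.3 and 74.9 CPM in PrE-E and 127 and 147 CPM in EPI-E (difference -0.92 ± 0.11). The erasers were Alkbh5 at 191 and 168 CPM in PrE-E and 104.6 and 126 CPM in EPI-E and Fto at 74.97 and 76.7 CPM in PrE-E and 56.6 and 46.03 CPM in EPI-E.

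Cell-cycle genes were lower for 10 of 14, with a median of -0.79 and 1 higher. Mcm2 and Mcm6, subunits of the replicative helicase, were at 304 and 319 CPM in PrE-E and 882 and 874 CPM in EPI-E (difference -1.49 ± 0.06) and 133 and 144 CPM in PrE-E and 399 and 410.5 CPM in EPI-E (difference -1.55 ± 0.07). Mki67, a proliferation antigen, was the higher member at 1446 and 1425 CPM in PrE-E and 929.5 and 944 CPM in EPI-E (difference 0.62 ± 0.04). Myc was at 0.231 and 0.515 CPM in PrE-E and 41.3 and 38.9 CPM in EPI-E (difference -6.26 ± 0.34), Ccnd1, cyclin D1, at 5.86 and 7.02 CPM in PrE-E and 90.1 and 82.01 CPM in EPI-E (difference -3.71 ± 0.18) and Ccne1, cyclin E1, at 90.7 and 77.4 CPM in PrE-E and 384 and 377 CPM in EPI-E. Mycn was not called, at 154 and 132 CPM in PrE-E and 134 and 123 CPM in EPI-E (difference 0.16 ± 0.10). Cdkn1b, which encodes the CDK inhibitor p27, was higher at 38.3 and 35.4 CPM in PrE-E and 8.95 and 8.75 CPM in EPI-E (difference 2.04 ± 0.22).

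Of the 83 ribosomal protein genes tested, 3 passed the filter on low counts through EPI-E alone. Ribosomal protein genes were lower for 56 of 83 and higher for 4, with a median of -0.33. Their share of counts was 3.38% and 3.43% in PrE-E and 4.30% and 4.34% in EPI-E. A scaling that sets this list near 0 raised the median over all genes from -0.03 to 0.23 and moved the split of calls to 4428 higher and 2786 lower, 61.4% higher where the scaling used here gave 48.9%. The differences of Sall4, Zfp42 and Lin28a given above are close to that shift in size. As the shift is upward, it makes the difference of Lin28a, which was lower in PrE-E, smaller. It makes those of Sall4 and Zfp42, which were higher, larger. Mitochondrially encoded transcripts held 2.13% and 2.23% of counts in PrE-E and 1.57% and 1.67% in EPI-E.

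Glucose metabolism differed by gene. Slc2a3, a high-affinity glucose transporter, was higher in PrE-E at 1398 and 1458 CPM in PrE-E and 312 and 314 CPM in EPI-E (difference 2.19 ± 0.05), and Slc2a1 was lower at 46.9 and 49.9 CPM in PrE-E and 118 and 100.04 CPM in EPI-E. Pdk1, which holds pyruvate back from the mitochondria, was at 9.64 and 9.02 CPM in PrE-E and 153 and 138 CPM in EPI-E (difference -3.94 ± 0.14), and the lactate exporter gene Slc16a3 at 7.48 and 6.96 CPM in PrE-E and 79.7 and 72.9 CPM in EPI-E. Of the 16 genes of glycolysis and hypoxia, 4 were higher and 8 lower, with a median of -0.27, but under ribosomal protein scaling 7 were higher and 5 lower, with a median of -0.01. Cholesterol synthesis genes were higher for 10 of 14 and lower for 2, with a median of 0.56, led by Cyp51 at 323 and 308 CPM in PrE-E and 78.1 and 92.4 CPM in EPI-E (difference 1.89 ± 0.09). Solute carrier genes were higher for 82 and lower for 39 of 210. Of the 210, 9 passed the filter on low counts through PrE-E alone and 17 through EPI-E alone, which fixed their direction. Slc39a8, a zinc and manganese importer, was at 108 and 89.4 CPM in PrE-E and 2.72 and 3.12 CPM in EPI-E, and the amino acid transporter genes Slc7a1 and Slc7a3 differed in opposite directions, at 264 and 249 CPM in PrE-E and 33.3 and 31.7 CPM in EPI-E and 1.00 and 1.22 CPM in PrE-E and 47.6 and 43.8 CPM in EPI-E.

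Epithelial genes did not follow 1 direction, with 8 higher and 7 lower of 17 in the epithelial and mesenchymal list. Of the 17, 1 passed the filter on low counts through PrE-E alone and 1 through EPI-E alone. Cdh1, E-cadherin, was lower in PrE-E at 111 and 122 CPM in PrE-E and 288 and 278 CPM in EPI-E, and so was Cdh2, N-cadherin, at 1.00 and 2.06 CPM in PrE-E and 11.99 and 13.5 CPM in EPI-E. Cldn6 was higher at 29.3 and 36.1 CPM in PrE-E and 1.92 and 2.59 CPM in EPI-E, and Cldn4 was found in EPI-E at 0 and 1 counts in PrE-E and 173 and 157 in EPI-E. Of the immediate early genes, which respond to handling as well as to signals, 5 were higher and 3 lower of 11. Jun was at 148 and 145 CPM in PrE-E and 17.6 and 17.9 CPM in EPI-E and Atf3 at 25.5 and 24.03 CPM in PrE-E and 0.331 and 1.37 CPM in EPI-E, while Ier2 was lower at 26.9 and 32.3 CPM in PrE-E and 107 and 105.1 CPM in EPI-E. The part of handling in these values was not tested.

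The largest differences beyond those named above, among genes with a mean of at least 10 CPM, included the following. Srgn, the proteoglycan serglycin of secretory granules, was at 1398 and 1255 CPM in PrE-E and 0.663 and 1.29 CPM in EPI-E (difference 10.24 ± 0.13). Habp2, a hyaluronan-binding protease, S100g, the calcium-binding protein calbindin-D9k, and Egflam, the matrix protein pikachurin, had no count in EPI-E and were at least 596-fold, 551-fold and 417-fold higher. Hkdc1, a hexokinase family gene, was at 188 and 212 CPM in PrE-E and 0.133 and 0.456 CPM in EPI-E (difference 8.88 ± 0.23). On the other side, Grhl2, an epithelial transcription factor, had no count in PrE-E and was at 64.1 and 56.8 CPM in EPI-E, at least 285-fold higher. Wt1, the Wilms tumour gene, and Nphs1, the gene of nephrin, which are both known from the kidney, had no count in PrE-E and were at 28.3 and 22.6 CPM and 25.7 and 28.5 CPM in EPI-E.

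A strict on or off pattern, at most 3 counts in each library of 1 fraction and a mean of at least 10 CPM in the other, was met by 38 genes of PrE-E and 51 of EPI-E. Of these, 23 and 30 had no count at all in the other fraction. Among genes with high counts, Lama1 stood in EPI-E at 0.0972% of its PrE-E level and Cubn at 0.0689%, whereas Lamc1 stood at 3.16% and Lrp2 at 4.01%. In the other direction Tdgf1 stood in PrE-E at 0.518% and Lef1 at 0.475%, whereas Pou5f1 stood at 14.8%. The share left in the other fraction thus differed by gene within the same libraries. How many cells crossed the gate was not tested.

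Among the genes with the highest counts of those called lower in PrE-E, the differences of those shown here lay between -0.78 and -1.54. Ncl, nucleolin, was at 8924 and 9115 CPM in PrE-E and 15429 and 15636 CPM in EPI-E (difference -0.78 ± 0.03), Npm1, nucleophosmin, at 2972 and 2806 CPM in PrE-E and 5764 and 5876 CPM in EPI-E (difference -1.01 ± 0.04) and Hsp90aa1, a cytosolic chaperone, at 3117 and 3160.2 CPM in PrE-E and 9137 and 9119 CPM in EPI-E (difference -1.54 ± 0.03). Myh9, a non-muscle myosin heavy chain, was among the 10 higher genes with the highest counts, at 5077 and 5032 CPM in PrE-E and 1029 and 1038 CPM in EPI-E (difference 2.29 ± 0.04).

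Markers of other cells that a culture or gate could hold were present at differing levels. For scale, the 2 epiblast markers Sox2 and Nanog summed to 0.0173% and 0.0169% of counts in EPI-E. The 3 primitive endoderm markers Gata4, Sox17 and Pdgfra summed to 0.11% and 0.118% in PrE-E. The 13 feeder fibroblast genes summed to 0.0394% and 0.0405% of counts in PrE-E and 0.0218% and 0.0208% in EPI-E, with 5 of 11 tested members higher, 0 lower and none at 0 counts in all libraries. Col1a1, a fibrillar collagen gene, was at 153 and 163 CPM in PrE-E and 72.6 and 71.1 CPM in EPI-E, and Postn, the matrix protein periostin, at 14.6 and 9.41 CPM in PrE-E and 3.11 and 3.73 CPM in EPI-E. The part of such cells in the collagen values was not tested. Trophoblast genes summed to 0.0104% and 0.0111% in PrE-E and 0.00245% and 0.00351% in EPI-E. Of the 5 tested 4 were higher and 1 lower, with a median of 2.93 (2.13 with genes at 0 set to their bound, 5.09 by DESeq2), and 2 of them passed the filter through PrE-E alone and 1 through EPI-E alone. Tead4 was higher at 69.1 and 73.8 CPM in PrE-E and 2.05 and 2.05 CPM in EPI-E and Tfap2c lower at 0 and 2 counts in PrE-E and 170 and 219 in EPI-E. Elf5, a defining trophoblast gene, was at 0 and 0 counts in PrE-E and 0 and 3 in EPI-E. Blood and endothelium genes summed to 0.0077% and 0.0067% in PrE-E and 0.000797% and 0.000665% in EPI-E. Of 3 tested members 2 were higher and 0 lower, with a median of 4.55. Of the 9 listed, 4 were at 0 in all libraries, among them the pan-leukocyte gene Ptprc, while Runx1, a factor of blood formation, was at 62.6 and 53.3 CPM in PrE-E and 1.19 and 0.837 CPM in EPI-E. Neural genes summed to at most 0.00399% in any library, mesoderm genes to at most 0.00164% and definitive endoderm genes to at most 0.00318%.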

How the data were processed

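RNA was measured by total RNA-seq in 4 libraries, 2 per sorted fraction. The values are whole-number counts per gene symbol that the authors deposited as 1 table for these libraries. Per the submitters' processing notes, reads were trimmed, aligned and counted on mm39 with tools that include STAR 2.7.11b and Subread, after FastQC 0.12.1 and Trim Galore. The annotation and the use of strand are not given in the sources used here. RNA, per the labels' protocols, was taken up in TRIzol and 2 library kits were used in the series, with no statement of which made these libraries.

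Counts were scaled with TMM and tested with edgeR 4.0.16 (R 4.3.3; filterByExpr with a count of 10 and a total of 15; robust quasi-likelihood fit; prior count 2), with Benjamini-Hochberg adjustment over 12423 of 21812 genes at 0.05. On simulated data for these libraries and genes, 53.1% of 96 genes changed by 1 log2 unit and 80.2% of 96 changed by 2 were called, with 12 false calls. Lengths, used for CPM per kilobase, are exon unions of GENCODE M21 (GRCm38), matched by symbol for 12341 of the 12423 tested genes. Promoters are from RefSeq on GRCm38.p6, since no mm39 genome was used here. The build differs from that of the counts, so these serve only for lengths and sequence.

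Replicates of a fraction differed by more than counting noise, with a chi-square of 10.09 per degree of freedom for PrE-E and 7.546 for EPI-E, so no library is a copy of another; this does not show that they were separate cultures. Both are counted as replicates, as labelled. The gene lists, and the choice of the comparison, were made with earlier results of these data known. Named genes are lineage markers, the 12 largest differences and the 10 highest levels in each direction, the 8 members of a list with the lowest adjusted p, members called against their list, and genes at most at 3 counts in 1 fraction. Amn, Creb3l2, Foxa2, Il6st, Lin28a, Sparc, Spry2, the uncalled Dnajb9, Dppa5a, Egr1, Mycn and Spry1, and the absent or untested Afp, Cer1, Elf5, Gsc, Lhx1 and Ptprc fall outside that rule and were chosen after their values were seen. Some genes that the rule names are not reported here. A fold against a fraction at 0 is computed against 3 counts in each of its libraries; floors cover counting error only. Alternatives were other scalings, filters, DESeq2 1.42.0, a minimum difference, a replicate block and each library left out.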

Additional observations from a re-analysis of the deposited data

How the results depend on the processing

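The number of genes called, 7172, stayed within 1.5 times of itself in every alternative run: other scalings, other filters, the replicate block, DESeq2 (6836) and each library left out (6186 to 6831, where the lone library is assumed to vary like the other fraction). A test against a minimum of 1 log2 unit called 3350 genes where 4656 were called with a difference of at least 1 log2 unit. Of the 156 called genes named above, 151 kept their direction and call in all the alternatives run on them, leaving out the test against a minimum difference. The call was lost in at least 1 alternative for 5: Gata6, Zfp42, Fgf5, Wnt7b and Lin28a. The cause was not tested. Of the 7 named genes without a call, 5 changed sign in at least 1 alternative. Dnajb9 came to 0.19 with ribosomal protein scaling and to between -0.46 and 0.22 with 1 library left out. Pdgfa came to 0.03 with that scaling and to between -0.53 and 0.16 with 1 library left out. Pdgfrb lay between -2.74 and 0.20 with 1 library left out, and Spry1 came to 0.02 with ribosomal protein scaling. That scaling also turned Dppa5a from -0.04 to 0.22 and called it and Mycn (0.42) higher, and library totals called Egr1 lower (-0.62). Ribosomal protein scaling, which raised the median over all genes to 0.23, moved the median of the anterior visceral endoderm list to -0.37, that of the Nodal pathway to -0.33 (5 higher, 5 lower) and that of the cell-cycle genes to -0.52 (3 higher, 8 lower). The replicate block gave 6746 called genes. Replicate numbers do not show a pairing: deviations of same-numbered libraries from their group means correlated at -0.00585. In the simulated data, with 2 libraries per fraction, differences of 1 log2 unit were missed in part. Only 96 genes of each size were changed there, against 7172 called in the real data, so the share missed does not carry over. Length and GC content were nearly unrelated to the difference across genes (Spearman's rho 0.0193 and 0.0151 over 12341 genes, which are not independent replicates).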
